A study of Mus musculus with 6 samples.

Results

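The genes described here are the 3 mammalian superoxide dismutases, Sod1, Sod2 and Sod3, the copper chaperone Ccs that loads Sod1, and catalase, Cat. They were taken as the rows whose Ensembl identifier matched these 5 symbols, and all 5 had a row among the 17193 genes listed. Transcript levels were measured by RNA sequencing in astrocytes pulled from the brains of wild type C57BL/6 mice, 3 months old, with beads against the surface antigen ACSA-2. The control group received saline (labelled Mock) and the other group received quinpirole, an agonist of the dopamine D2 receptor class, with 3 libraries each. The comparison addresses how agonist administration relates to the astrocyte transcriptome. Neither the labels nor the methods say how many animals stand behind a library, so p-values measure the spread between these libraries, which may be technical.

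Superoxide dismutases turn superoxide, a by-product of respiration and a product of NADPH oxidases, into oxygen and hydrogen peroxide. Sod1 works in the cytosol and in the mitochondrial intermembrane space with copper and zinc, Sod2 works in the mitochondrial matrix with manganese, and Sod3 is secreted and binds the cell surface and extracellular matrix. Ccs hands copper to newly made Sod1, and catalase, held in peroxisomes, splits hydrogen peroxide into water and oxygen. Astrocytes are known as a main antioxidant support of neurons, and the transcription factors Nfe2l2 (Nrf2), Foxo3 and Sp1 are among the known regulators of these genes.

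Promoters are shown because these regulators bind short motifs near the start sites. For 3 members a promoter entry was matched in a table of RefSeq sequences on build GRCm38.p6, namely Sod1 (chr16:90220512-90220761, plus strand), Sod2 (chr17:13007589-13007838, plus strand) and Cat (chr2:103485154-103485403, minus strand). Sod3 and Ccs are named only. Each run below holds the 250 bases before the RefSeq start, written 5′ to 3′ on the gene's strand. That start differs from the gene bounds of GENCODE M21 given further below. The Sod2 window lies inside those bounds (13006846 to 13040063), and the Sod1 and Cat windows reach a few bases into theirs. Capitals mark GC boxes (GGGCGG, the Sp1 motif) and the core of the antioxidant response element (TGACNNNGC, the Nfe2l2 motif), on either strand.
Sod1: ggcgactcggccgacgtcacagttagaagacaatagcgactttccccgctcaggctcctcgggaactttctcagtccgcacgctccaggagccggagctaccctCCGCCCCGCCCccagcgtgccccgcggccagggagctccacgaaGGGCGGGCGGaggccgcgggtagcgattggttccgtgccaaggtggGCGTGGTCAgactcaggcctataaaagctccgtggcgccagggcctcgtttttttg
Sod2: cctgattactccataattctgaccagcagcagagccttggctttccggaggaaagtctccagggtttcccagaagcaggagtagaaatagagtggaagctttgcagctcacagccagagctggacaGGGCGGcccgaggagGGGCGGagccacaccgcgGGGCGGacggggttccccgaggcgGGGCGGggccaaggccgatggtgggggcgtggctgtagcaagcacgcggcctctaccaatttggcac
Cat: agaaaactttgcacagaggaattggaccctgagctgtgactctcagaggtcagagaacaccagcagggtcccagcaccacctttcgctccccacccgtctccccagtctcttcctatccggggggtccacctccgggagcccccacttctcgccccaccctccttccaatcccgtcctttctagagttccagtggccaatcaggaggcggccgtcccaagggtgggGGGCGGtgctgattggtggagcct
The 3 runs were rich in G and C, at 66.4% for Sod1, 63.6% for Sod2 and 62.0% for Cat. Sod1 held 4 GC boxes in 2 overlapping pairs, and it held the only match of the antioxidant response element core, on the minus strand 56 to 48 bases before the start. Sod2 held 4 GC boxes between 124 and 62 bases before the start, and Cat held 1, from 24 to 19 bases before it. The CCAAT letters occurred once each in the Sod1 and Sod2 runs and 4 times in that of Cat. The FOXO letters GTAAACA were not in these windows. Among all 32851 promoters of that length in the table, 32.7% held a GC box, 10.2% the antioxidant response element core, 33.8% CCAAT and 3.2% the FOXO letters, each counted on both strands. A match of this kind describes letters and is not a measured binding site.

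All 5 genes were detected in every library, and their levels are given as FPKM, fragments per kilobase of transcript scaled to the mapped fragments of the library. Sod1 (ENSMUSG00000022982, chromosome 16, 90220754 to 90226329, plus strand) had by far the highest FPKM of the members. Its level was 268.5, 258.6 and 278.9 FPKM in saline libraries 1 to 3 and 284, 299.6 and 270.8 FPKM in quinpirole libraries 1 to 3. The groups overlapped, since quinpirole library 3 lay below saline library 3. The group means were 269 ± 10.2 and 285 ± 14.4 FPKM (SD, n = 3), a difference of 6.01% of the saline mean. On the log2(FPKM + 1) scale the difference was 0.08 with a standard error of 0.05 and a 95% interval from -0.03 to 0.20, or -2.10% to 14.7% (limma, adjusted p = 0.283). Its coding transcript has 5 exons and 641 bases in GENCODE M21. Of its 592 words of 50 bases, 137 (23.1%) also occur in the processed pseudogene Gm8566, which has no row under that symbol among the genes listed. How the authors' counting treated reads that match both is not given, so the level of Sod1 is uncertain by those reads. The sign of the Sod1 difference was not stable, at -0.03 after quantile normalization and at -0.07 after correction for coding transcript length.

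Ccs (ENSMUSG00000034108, chromosome 19, 4825366 to 4839332, minus strand), the chaperone of Sod1, was listed at 33.11, 31.73 and 36.41 FPKM after saline and at 35.33, 35.43 and 34.23 FPKM after quinpirole. All 3 quinpirole values fell inside the saline range. The means were 33.8 ± 2.40 and 35 ± 0.664 FPKM (SD, n = 3), and the log2 difference was 0.05 with a standard error of 0.05, an interval of -5.04% to 13.3% and an adjusted p of 0.543 (limma). After the corrections for exonic length, for exonic length and GC content and for coding transcript length it lay below 0, at -0.05, -0.01 and -0.07.

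Sod3 (ENSMUSG00000072941, chromosome 5, 52363791 to 52371418, plus strand), the secreted enzyme, was the one member with a lower mean after quinpirole. It was listed at 36.12, 34.02 and 34.57 FPKM after saline and at 30.7, 34.46 and 34.9 FPKM after quinpirole. Quinpirole library 1 lay below the other 5 libraries. The means were 34.9 ± 1.09 and 33.4 ± 2.31 FPKM (SD, n = 3), and the log2 difference was -0.07 with a standard error of 0.06, an interval of -12.8% to 4.75% and an adjusted p of 0.465 (limma). Without quinpirole library 1 the difference was -0.01.

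Sod2 (ENSMUSG00000006818, chromosome 17, 13006846 to 13040063, plus strand), the mitochondrial enzyme, showed the largest difference of the 5 members. It was listed at 16.38, 17.28 and 17.25 FPKM after saline and at 17.91, 18.91 and 18.91 FPKM after quinpirole. The lowest quinpirole value, in library 1, exceeded the highest saline value, in library 2. The means were 17.0 ± 0.510 and 18.6 ± 0.577 FPKM (SD, n = 3), a difference of 9.49%, and the log2 difference was 0.12 with a standard error of 0.05 and an interval of 1.21% to 17.3%. Its unadjusted p was 0.0282 and its adjusted p 0.115 (limma), so it did not pass the threshold of 0.05. The difference was 0.22 after correction for exonic length (adjusted p = 0.0634) and 0.22 after correction for coding transcript length (adjusted p = 0.0747), still short of the threshold (limma). It was 0.17 after correction for exonic length and GC content (limma adjusted p = 0.110) and 0.12 after quantile normalization (0.143). Without saline library 1 it was 0.10 (limma adjusted p = 0.274).

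Cat (ENSMUSG00000027187, chromosome 2, 103453849 to 103485160, minus strand), the peroxisomal enzyme, had the second highest FPKM of the members. It was listed at 39.76, 40.34 and 38.9 FPKM after saline and at 40.36, 41.27 and 42.67 FPKM after quinpirole. The groups did not overlap, by a gap between 40.34 and 40.36 FPKM only. The means were 39.7 ± 0.721 and 41.4 ± 1.17 FPKM (SD, n = 3), and the log2 difference was 0.06 with a standard error of 0.04, an interval of -1.92% to 11.0% and an adjusted p of 0.313 (limma). It was -0.01 after the exonic length correction and -0.02 after the correction for exonic length and GC content. In GENCODE M21 the longest coding transcripts have 8 exons and 1067 bases for Ccs, 2 exons and 3738 bases for Sod3, 5 exons and 5861 bases for Sod2, and 13 exons and 2613 bases for Cat. None of the 50-base words of Ccs, Sod3 and Cat occurs in transcripts of other genes, and 1.43% of those of Sod2 do.

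**Figure D1:**
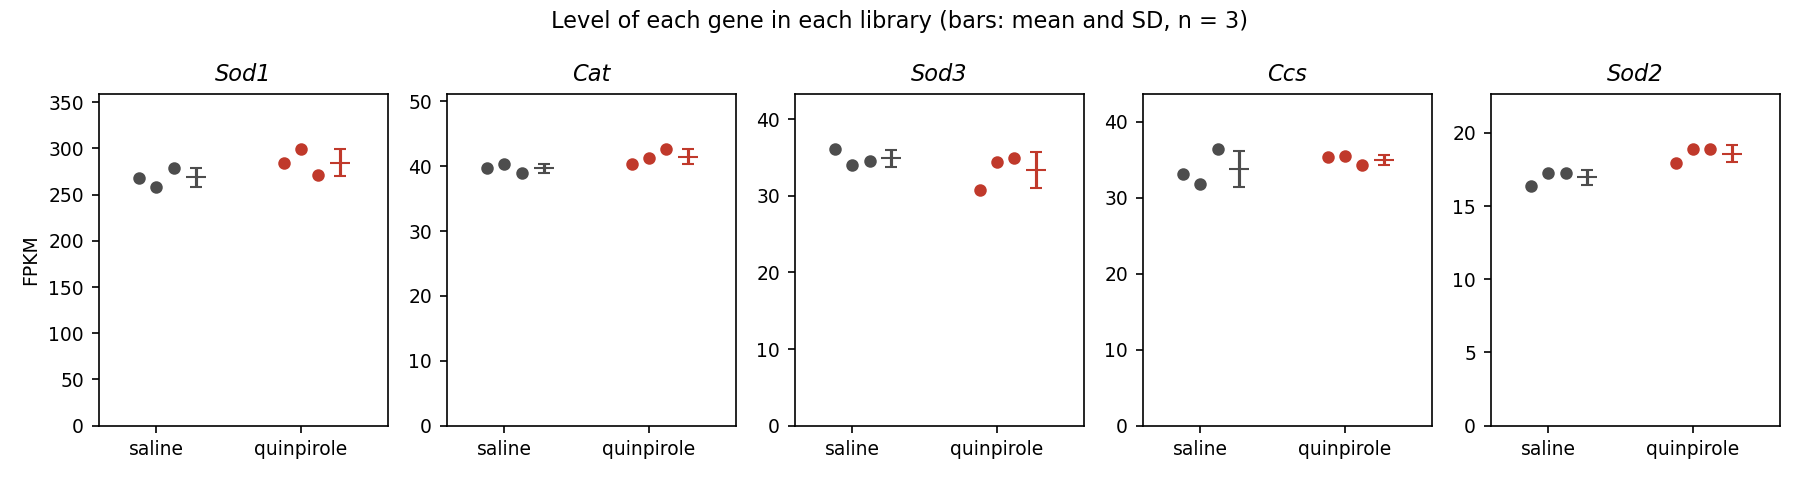
The level of each gene in FPKM (vertical axes from 0, one panel per gene with its own scale) is plotted for the 3 saline and 3 quinpirole libraries as points, with bars for the mean and SD. Sod2 at 16.38 to 17.28 FPKM after saline and 17.91 to 18.91 FPKM after quinpirole shows the clearest gap between the groups, while Sod1, Sod3 and Ccs overlap.

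Across the 5 members, 0 passed the threshold in limma, 1 had an unadjusted p under 0.05 (Sod2), and 2 (Sod2 and Cat) were higher after quinpirole without overlap. Among the 12255 genes tested, 10.9% passed the threshold (704 higher, which is 5.74%, and 635 lower), and 36.9% did not overlap between the groups, 20.0% being higher after quinpirole. The median log2 difference of the 5 was 0.06, against 0.02 over all genes tested, of which 53.8% lay above 0. The 2 separated members of 5 stand beside that 20.0%, and the 0 calls beside the 10.9%, on a set too small to be read against either.

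**Figure D2:**
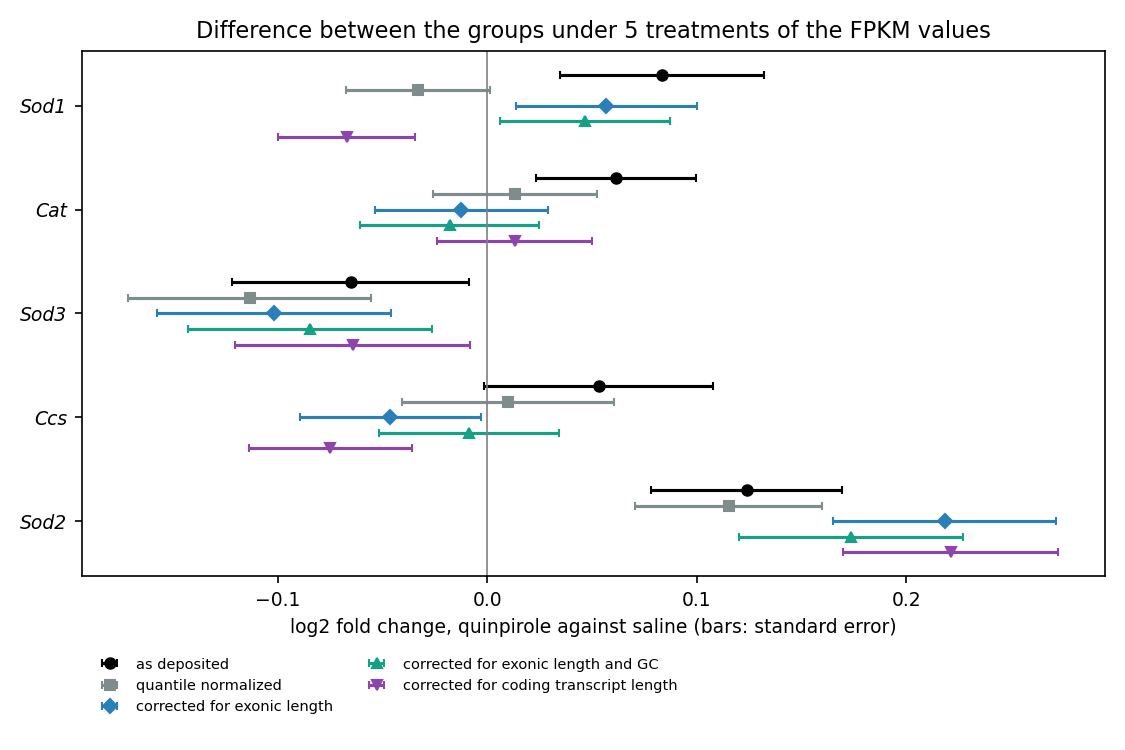
Log2 fold changes of quinpirole against saline (horizontal axis, bars are standard errors) are plotted for the 5 genes under 5 treatments of the FPKM values, one marker and colour each. Sod2 lies above 0 in all 5 and Sod3 below 0 in all 5, whereas Sod1, Ccs and Cat lie on either side of 0.

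The order of levels was the same in both groups, apart from one pair. FPKM values are divided by a transcript length, and the length used for each gene is not given in the sources used here. For Sod1 the coding transcript has 641 bases and all exons together 3970. Orders and ratios between genes depend on that choice. Sod1 exceeded Cat in 6 of 6 libraries, by 6.34 to 7.26 times, and ranked 201 of the 12255 genes by mean level. Cat exceeded Ccs in 6 of 6 libraries, by 1.07 to 1.27 times. Ccs exceeded Sod3 in 3 of 6, with a ratio from 0.917 to 1.15, so these neighbours did not differ beyond their spread. Sod3 exceeded Sod2 in 6 of 6, by 1.71 to 2.21 times, and Sod2, at rank 4401, was the lowest member. By FPKM, the cytosolic enzyme therefore made up most of the dismutase total. Of the summed FPKM of Sod1, Sod2 and Sod3, Sod1 took 83.8% ± 0.466 after saline and 84.6% ± 1.02 after quinpirole (SD, n = 3, exact permutation p = 0.4). The Sod2 share was 5.30% ± 0.248 and 5.52% ± 0.263 (exact permutation p = 0.4), and the Sod3 share was 10.9% ± 0.407 and 9.92% ± 0.772 (exact permutation p = 0.2, n = 3). All of these tests were two-sided, and 0.1 is the smallest p that 3 libraries against 3 allow.

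A ratio between members within a library does not depend on how libraries were scaled, and each member was set against Sod1. Ccs, the chaperone, stood at 12.33%, 12.27% and 13.05% of the Sod1 level after saline and at 12.44%, 11.83% and 12.64% after quinpirole. The values of the groups overlapped. Sod3 stood at 13.45%, 13.16% and 12.39% of Sod1 after saline and at 10.81%, 11.5% and 12.89% after quinpirole. Two-sided exact permutation tests of the log2 ratio gave a difference of -0.15 for Sod3 (p = 0.2) and of -0.03 for Ccs (p = 0.6). The Sod3 ratio was lower in quinpirole libraries 1 and 2 than in any saline library, while library 3 lay within the saline range. Sod2 stood at 6.10%, 6.68% and 6.18% of Sod1 after saline and at 6.31%, 6.31% and 6.98% after quinpirole, a log2 difference of 0.05 (exact permutation p = 0.5). Cat stood at 14.81%, 15.6% and 13.95% after saline and at 14.21%, 13.78% and 15.76% after quinpirole, a difference of -0.02 (exact permutation p = 0.8). All 4 ratios overlapped between the groups, and the p-values adjusted over the 4 (Benjamini-Hochberg, exact permutation) were 0.8. After correction for coding transcript length the Sod2 ratio differed by 0.29 and after correction for exonic length by 0.16, both at the smallest exact permutation p of 0.1. The Ccs ratio differed by -0.10 after the exonic length correction, also at the exact permutation p of 0.1, and by -0.0079 after the coding transcript length correction (exact permutation p = 0.9).

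**Figure D3:**
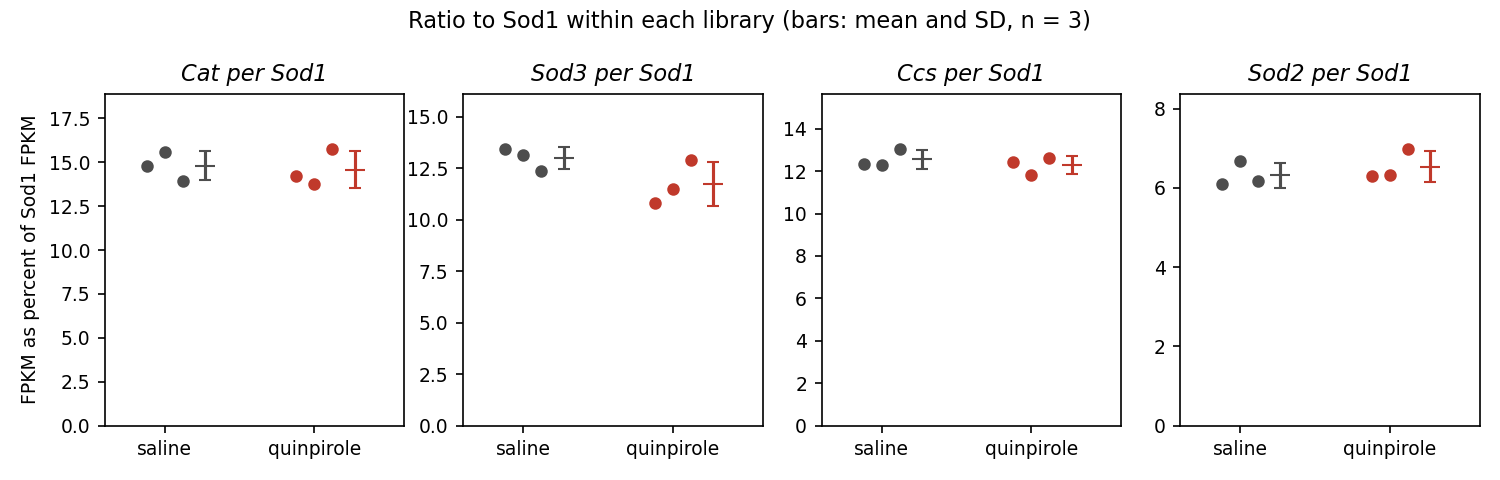
The FPKM of Cat, Sod3, Ccs and Sod2 as a percent of the Sod1 FPKM in the same library (vertical axes from 0) is plotted for the saline and quinpirole libraries, with bars for mean and SD. The groups overlap in all 4 panels, and Sod3 after quinpirole spreads from 10.81% to 12.89%.

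Likeness between members was described over the 6 libraries of both groups. Pearson's r of log2(FPKM + 1) was 0.79 between Sod1 and Ccs and 0.80 between Sod2 and Cat, 0.55 between Sod1 and Sod2, 0.38 between Ccs and Sod2, and between -0.28 and 0.02 for Sod3 with each other member. Among 6613 other genes with a mean of at least 10 FPKM, the genes most like Sod2 were Prdx3, a mitochondrial peroxiredoxin (r = 0.997), Acat2, an acetyl-CoA acetyltransferase (0.9945), and Gatm, an enzyme of creatine synthesis (0.993). The genes most like Sod1 were the ribosomal protein gene Rpl30 (0.994), the respiratory complex I subunit gene Ndufa3 (0.991) and Gtf3c6 (0.988). Ccs was followed most closely by Nprl3, Ndufa5 and Nup85 (0.979, 0.978 and 0.977), Cat by Tmem123, Rap1gds1 and Plekhh3 (0.984, 0.982 and 0.976), and Sod3 by genes that include Eno1b and Mid1 (0.971 and 0.963). With 6 points that share library and depth, high values are common, and 444 genes passed r = 0.9 with Sod2, 252 with Sod1, 75 with Cat, 69 with Ccs and 20 with Sod3. Prdx3 itself was listed at 30.42, 32.77 and 32.86 FPKM after saline and at 34.31, 36.76 and 37.41 FPKM after quinpirole. Its groups did not overlap, and it did not pass the threshold (log2 difference 0.17, limma adjusted p = 0.0678). Since Prdx3 was picked for its likeness to Sod2 over these same libraries, its separation is not a second observation.

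The lists drawn up for the metals of the dismutases gave 1 call. Of all genes tested, 10.9% passed the threshold in either direction. Of 12 copper delivery genes tested, Atp7a, a copper-exporting ATPase, fell from 5.59 ± 0.296 to 4.32 ± 0.356 FPKM (SD, n = 3, log2 difference -0.31, limma adjusted p = 0.0410) and 0 rose, with a median of 0.13 over the list. Atp7a was not past the threshold after the exonic length correction (limma adjusted p = 0.0739), after quantile normalization (0.0538), with no filter on low values (0.0693), with the replicate number as a block (0.0928), or without any 1 of the 6 libraries (0.0534 to 0.119). The most abundant gene of that list, Slc25a3, a mitochondrial carrier of copper and phosphate, was listed at 251 ± 1.04 and 275 ± 8.96 FPKM (SD, n = 3, log2 difference 0.13, limma adjusted p = 0.0559). Of 8 genes listed under manganese transport, 7 were tested and 0 passed, with a median of 0.04. What each of them carries was not measured here. Slc25a39, a mitochondrial carrier and the most abundant of these, was listed at 70.3 ± 15.9 and 71.3 ± 3.32 FPKM (SD, n = 3), with saline library 2 at 88.57 FPKM above the other 5.

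Catalase reaches the peroxisome through the import machinery, of which 17 genes were tested. Pex2, a ubiquitin ligase subunit of that machinery, rose from 20.8 ± 0.357 to 24.2 ± 1.47 FPKM (SD, n = 3, log2 difference 0.21, limma adjusted p = 0.0454), and its adjusted p was 0.144 after the exonic length correction and 0.0636 to 0.125 with any 1 of the 6 libraries left out. The other 16 did not pass, among them Pex19, the most abundant, at 51.0 ± 1.44 and 52.9 ± 1.14 FPKM (SD, n = 3), and the median was 0.10. This 1 call stands beside the 10.9% of all genes tested that passed in either direction. Of 10 peroxisomal oxidases, which make the hydrogen peroxide that catalase removes, 9 had a row, 5 were tested and 0 passed. Their median log2 difference was 0.02. Of 14 NADPH oxidase and related genes, which make superoxide or peroxide, 13 had a row, 7 were tested and 0 passed. The list median was -0.0038, and 3 of the 7 lay above 0. Cyba, a shared NADPH oxidase subunit and the most abundant of the list, was listed at 76.34, 66.78 and 77.38 FPKM after saline and at 82, 90.06 and 84.35 FPKM after quinpirole (log2 difference 0.22, limma adjusted p = 0.0691). Cybb, of the same list and named here after its values were seen, went the other way. It was listed at 9.55 ± 0.245 and 8.21 ± 0.467 FPKM (SD, n = 3, log2 difference -0.20, limma adjusted p = 0.0649).

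The glutathione peroxidases and peroxiredoxins, which remove peroxide by other chemistry than catalase, gave more calls than any other list described. Of 11 tested, 6 rose and 0 fell past the threshold, 9 were higher after quinpirole without overlap, and the median log2 difference was 0.19. Over all genes tested, 5.74% were called higher and 20.0% were higher without overlap. The 6 calls were all lost with the replicate number as a block, and without saline library 1 or 2 or quinpirole library 1 or 2, and 1 was kept without quinpirole library 3. Prdx5, a peroxiredoxin of mitochondria, peroxisomes and cytosol, was listed at 236.9, 231.7 and 251 FPKM after saline and at 289.3, 296.7 and 285.1 FPKM after quinpirole. It rose by 0.28 on the log2 scale (limma adjusted p = 0.0225) and passed after the exonic length correction too, at 0.18 (limma adjusted p = 0.0324). It did not pass with the replicate number as a block (limma adjusted p = 0.0803), nor without saline library 1 or 2 or quinpirole library 1 or 2 (limma adjusted p from 0.0600 to 0.0910). Gpx8, a peroxidase of the endoplasmic reticulum, rose from 79.3 ± 3.03 to 95.1 ± 3.50 FPKM (SD, n = 3, log2 difference 0.26, limma adjusted p = 0.0250). Gpx4, the lipid peroxide reductase and the most abundant of the list, rose from 608 ± 19.9 to 694 ± 14.6 FPKM (SD, n = 3, log2 difference 0.19, limma adjusted p = 0.0325), but its difference was -0.0012 after quantile normalization. The calls of Gpx8 and Gpx4 held without saline library 3 and were lost without any 1 of the other 5 libraries (limma adjusted p from 0.0550 to 0.107). The other 3 that rose were Gpx7, Prdx1 and Prdx6. After the exonic length correction 1 of the 11 passed, and 3 passed after quantile normalization. Gpx3, a secreted peroxidase named here after its values were seen, was listed at 105.6, 108.8 and 105.2 FPKM after saline and at 46.83, 123.9 and 53.59 FPKM after quinpirole. Its quinpirole libraries lay on both sides of the saline range, and it did not pass (log2 difference -0.64, limma adjusted p = 0.213). The difference was -1.07 without quinpirole library 2 (limma adjusted p = 0.00711), -0.38 without library 1 (0.453) and -0.48 without library 3 (0.417).

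Of 12 regulators of these enzymes, 10 were tested, 0 rose and 1 fell, with a median of -0.12. Among all genes tested, 10.9% passed the threshold in either direction. Foxo3, a transcription factor known to act on Sod2 and Cat, was listed at 23.73, 21.75 and 21.84 FPKM after saline and at 19.06, 17.81 and 18.58 FPKM after quinpirole, and fell by 0.27 on the log2 scale (limma adjusted p = 0.0277, and 0.0503 after the exonic length correction). The Foxo3 call held without saline library 3 and was lost without any 1 of the other 5 libraries (limma adjusted p from 0.0585 to 0.0957). Nfe2l2, the most abundant regulator, was listed at 98.1 ± 4.41 and 103 ± 0.597 FPKM (SD, n = 3), with a log2 difference of 0.07 (limma adjusted p = 0.288).

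**Figure D4:**
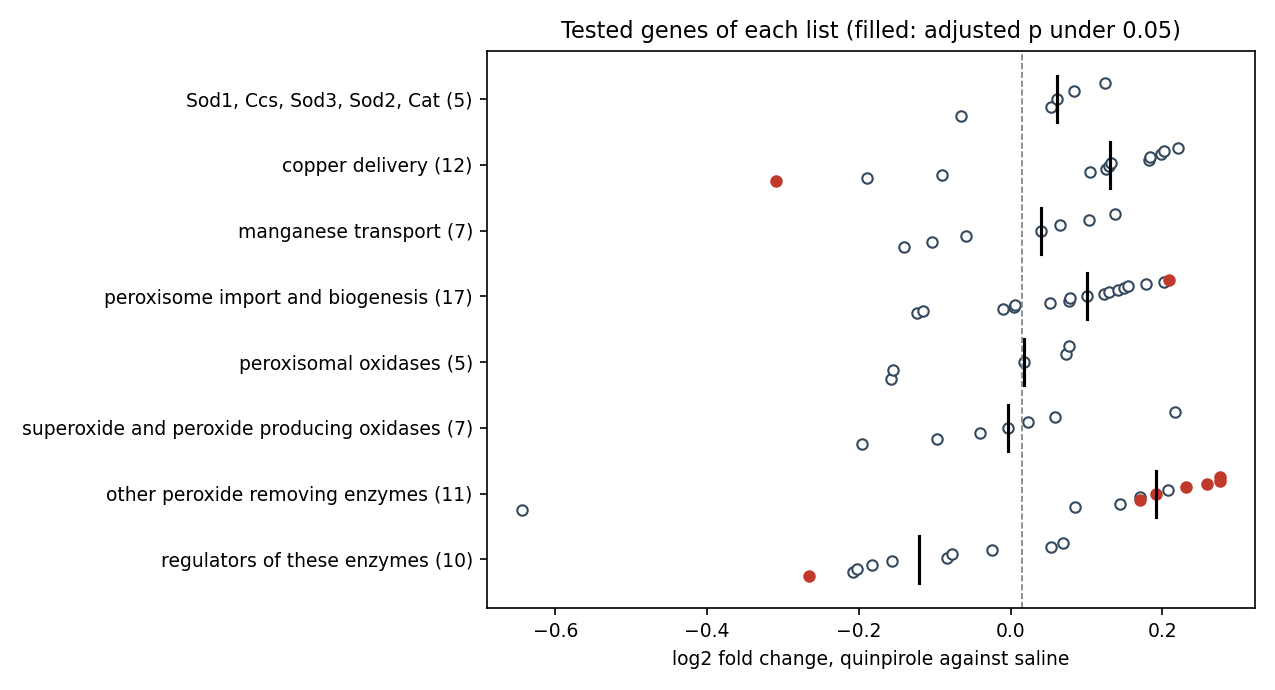
Each point is the log2 fold change of one tested gene, quinpirole against saline (horizontal axis), with 1 row per list and the number of tested genes in brackets. Filled points passed an adjusted p of 0.05, black bars are list medians and the dashed line is the median of all genes tested, 0.02. The 5 members hold no filled point, the other peroxide removing enzymes hold 6, and the point farthest left is Gpx3.

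The library facts that touch these results were the following. Summed FPKM ran from 401769 to 413730 after saline and from 425244 to 437164 after quinpirole, without overlap. The steps between low values gave an estimated 44400000 to 55100000 steps per library, with 63.2% to 69.5% of the low values within 0.1 of a whole step against 20.0% by chance. With coding transcript lengths taken as the lengths behind FPKM, Ccs rested on the fewest steps of the members, 1622 to 1994. Its counting error at the lowest library was then 2.48%, with each step taken as 1 independent count. Whether a step is 1 read or 1 fragment is not given in the sources used here, and this error covers counting alone. All 9 astrocyte markers were detected, summing to 1196 to 1302 FPKM after saline and to 1153 to 1192 FPKM after quinpirole, with 2 of 9 lower past the threshold in limma (Slc1a2 and Atp1b2, the latter the gene of the ACSA-2 antigen) and with Slc1a2 and S100b under 10 FPKM in every library. The summed microglia markers ran from 480 to 497 FPKM after saline and from 514 to 550 FPKM after quinpirole (1 of 7 higher past the threshold). Mural markers summed to 4795 to 5128 and 5147 to 5507 FPKM, carried by Acta2 and Tagln, with Rgs5, Kcnj8 and Myh11 under 1 FPKM and 1 of 3 tested, Pdgfrb, lower past the threshold. These marker calls stand beside the 10.9% of all genes tested that passed in either direction. Neuron markers summed to 17.6 to 19.7 and 20.5 to 23.6 FPKM, carried by Tubb3, with Snap25 and Rbfox3 near 0, and endothelial markers summed to 7.92 to 8.27 and 6.50 to 7.67 FPKM, with Pecam1 near 0. Oligodendrocyte markers (156 to 176 and 163 to 173 FPKM, carried by Cnp, Mog near 0) and ependymal markers (144 to 161 and 143 to 151 FPKM, carried by Foxj1) overlapped between the groups, and of 5 red blood cell markers 1, Alas2, had a row and was near 0. The microglia, mural and neuron sums were higher after quinpirole without overlap, the direction of Sod2 and Cat. The astrocyte and endothelial sums were lower after quinpirole without overlap. The part of these cell types in the values of Sod2 and Cat was not tested. In bulk libraries, fewer cells of a type and less RNA per cell cannot be told apart.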

How the data were processed

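Poly(A) RNA of 6 astrocyte libraries, 3 labelled Mock (named Saline in the study's supplementary table header) and 3 labelled Quinpirole, was sequenced as paired ends. The authors trimmed the reads, mapped them with TopHat2 (version not given in the sources used here, build GRCm38 in the submitters' processing notes) and deposited FPKM values, already scaled by transcript length and library size. The program and annotation behind FPKM are not given in the sources used here. Symbols were matched for 17090 of 17193 identifiers, and positions, lengths and shared words of 50 bases came from GENCODE M21 (GRCm38).

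Log2(FPKM + 1) of the 12255 genes with a mean of at least 1 FPKM was compared in limma 3.58.1 (R 4.3.3, eBayes with trend, two-sided, Benjamini-Hochberg over all genes tested, threshold 0.05). A fold change on this scale understates the change of low genes. Ratios and shares were compared by exact permutation. The code was tested on simulated data. Promoters came from a RefSeq table, and figures from Python 3.11.15 with matplotlib 3.10.9. The members and lists were chosen with earlier results of these data known. Named were all members, from each other non-marker list up to 2 genes with the smallest p in each direction among those past the threshold and its most abundant gene, and the 3 genes most like each member, of which a few items are not reported here. No pair of libraries agreed within counting noise, the median chi-square being 4.8 to 7.69 times the chance value within groups.

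Alternatives were another pseudocount (0.1), no minimum or a minimum of 5 FPKM, quantile and median ratio scaling, eBayes without trend or robust, a replicate block, loess corrections for exonic length (with or without GC content) and leaving out each library. The coding transcript length correction was added after seeing the data, since the exonic length of Sod1 (3970 bases) is mostly a retained intron.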

Additional observations from a re-analysis of the deposited data

How the results depend on the processing

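None of the 5 members passed the threshold under any of the 17 alternatives. Sod2 kept its sign in all of them (0.10 to 0.22, limma adjusted p from 0.0634 to 0.274) and Sod3 kept its sign (-0.11 to -0.01). Signs turned for Sod1 after quantile normalization (-0.033) and the coding transcript length correction (-0.067), for Ccs after the exonic length (-0.046), exonic length and GC (-0.0087) and coding length (-0.075) corrections, and for Cat after the exonic length (-0.013) and exonic length and GC (-0.018) corrections. The Sod3 to Sod1 ratio reached 0.0029 and the Cat to Sod1 ratio 0.080 after the coding length correction. With each library left out in turn, the Sod2 to Sod1 ratio ran from -0.0017 to 0.088 and the Cat to Sod1 ratio from -0.078 to 0.019. The cause of these turns was not tested.

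The 1339 genes past the threshold became 633 with no filter, 783 after quantile normalization (36.1% higher, against 52.6%), 714 without the variance trend (41% higher), 509 after the exonic length correction, 375 after the exonic length and GC correction and 226 after the coding length correction. With each library left out in turn they ran from 3 (without saline library 2) to 1182 (without saline library 3), with 6 without saline library 1 and 11, 25 and 214 without quinpirole library 1, 2 and 3. With a replicate block 2 genes passed. Deviations of same-numbered libraries correlated at 0.03, -0.07 and -0.10, against a mean of 0.02 for other pairings. Not every library correlated best with its own number, and the libraries share only a number. The block changed no call of a member. Among other named genes, quantile normalization turned the sign of Slc25a39 (-0.019), Pex19 (-0.0037), Gpx4 (-0.0012) and Nfe2l2 (-0.0075). Slc25a39 was also at -0.028 after the exonic length correction, at -0.046 after the coding length correction and between -0.064 and 0.22 with a library left out. Atp7a has no value at a minimum of 5 FPKM. The 6 rises among glutathione peroxidases and peroxiredoxins became 1 under each of the 3 length corrections, 0 with the replicate block, and 0 without saline library 1 or 2 or quinpirole library 1 or 2. At the member's lowest library, counting error alone came to between 1.14% (Sod1) and 2.48% (Ccs) of a level. This takes coding transcript lengths as the lengths behind FPKM and each step as 1 independent count.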
